A study of Mus musculus with 3 samples.

Results

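The receptors for interleukin-2 (IL-2) and for the related cytokines that share the common gamma chain were described through the 8 genes that encode their chains, Il2ra, Il2rb, Il2rg, Il7r, Il4ra, Il9r, Il15ra and Il21r. The genes were taken by symbol from GENCODE annotation M21 on mouse assembly mm10. Each symbol stood on 1 identifier among the 55536 genes quantified. Polyadenylated RNA had been sequenced from regulatory T cells (Tregs) that had experienced inflammation, primary mouse cells of 12 weeks of age, described as originating from an activated Treg. All 3 libraries came from 1 biosample of 1 donor and carry technical replicate numbers, so they form 1 group and their spread says nothing of variation between mice. No other genotype, treatment or untreated group was analysed here. The sex of the donor was labelled as not collected. What the inflammation was, how the cells were sorted and whether animals were pooled was not given in the sources used here.

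Cytokine receptors of this family are built from separate chains. The common gamma chain, encoded by Il2rg, pairs with a cytokine-specific chain, recruits the kinase Jak3, and signals with the Jak1 bound to that partner, leading to phosphorylation of STAT transcription factors. Il2ra encodes CD25, the chain that gives the IL-2 receptor its high affinity. Tregs carry it constitutively, take up IL-2 made by other T cells, and depend on STAT5 signalling for Foxp3 expression and survival.

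The estimated transcripts of 4 of the genes differed at splice junctions that end the coding sequence early, and the sequences there are shown because the transcript results turn on them. Each is spliced coding sequence of the GENCODE M21 transcript, 5′ to 3′, starting 30 bases before the junction. For the alternative transcript it runs to the stop codon, in capitals, and for the long coding transcript it stops 30 bases after the junction. The 4 pairs were picked after their levels had been seen.
In Il4ra (chromosome 7, plus strand), Il4ra-205 gains a 114-base exon, exon 8 of 12 at chr7:125571934-125572047, and reads into a stop codon within it.
Il4ra-205: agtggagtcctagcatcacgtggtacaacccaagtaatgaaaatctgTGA
Il4ra-201: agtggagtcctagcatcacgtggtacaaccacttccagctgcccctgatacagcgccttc
In Il2rg (chromosome X, minus strand), Il2rg-203 lacks the 97-base exon 6 of 8 of Il2rg-201, at chrX:101265630-101265726, and its frame shifts in the next exon.
Il2rg-203: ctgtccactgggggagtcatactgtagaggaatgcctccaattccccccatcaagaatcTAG
Il2rg-201: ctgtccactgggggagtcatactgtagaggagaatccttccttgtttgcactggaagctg
In Il21r (chromosome 7, plus strand), Il21r-202 lacks the 97-base exon 7 of 9 of Il21r-201, at chr7:125629738-125629834, and its frame shifts before a stop in its last exon.
Il21r-202: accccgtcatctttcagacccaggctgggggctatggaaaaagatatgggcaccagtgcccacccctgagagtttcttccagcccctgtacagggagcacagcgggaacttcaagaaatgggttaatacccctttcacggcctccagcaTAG
Il21r-201: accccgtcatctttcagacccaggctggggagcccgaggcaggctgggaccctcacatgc
In Il2ra (chromosome 2, plus strand), Il2ra-202 joins exon 1 to an exon of its own at chr2:11647972-11648768 and ends there.
Il2ra-202: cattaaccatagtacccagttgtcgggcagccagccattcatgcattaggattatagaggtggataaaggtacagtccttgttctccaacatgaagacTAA
Il2ra-201: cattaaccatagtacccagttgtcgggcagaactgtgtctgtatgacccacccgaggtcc

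Gene counts summed to 35592007, 31611296 and 37728087 in libraries 1 to 3, and the 8 receptor genes took 0.478%, 0.480% and 0.464% of them. All 6 Treg markers checked (Foxp3, Cd4, Cd3e, Ctla4, Ikzf2 and Tnfrsf18) were detected, meaning a TPM of at least 1 in each library (TPM is abundance corrected for transcript length and scaled to the same total in every library), and Foxp3 stood at 97.6 ± 1.04 TPM (SD, n = 3 libraries, as for every error below). The libraries differed for 5 of the 6, by the test given with the library comparison, and Foxp3 was the one that did not pass. By that test they differed for 77.0% of all genes tested and 83.4% of genes averaging at least 500 counts. The count of markers therefore says little about them. Library 3 stood apart: its 4 salivary gland genes summed to 53458 TPM, against 4.36 and 10.8 TPM in libraries 1 and 2. TPM values share 1 total, so all other genes in library 3 read somewhat lower, and libraries were therefore compared on counts scaled with edgeR's TMM factors. Summed TPM of the markers of other blood cells in libraries 1, 2 and 3 was 66.6, 68.8 and 67.6 for 6 B cell genes and 19.4, 26.5 and 16.9 for Cd8a and Cd8b1. The sums were 2.44, 2.88 and 3.13 for 4 NK cell genes, with Klre1 at 0 counts, and 2.06, 0.85 and 3.04 for 5 myeloid genes, with Cd14 at 0. They were 7.92, 4.04 and 2.55 for 4 dendritic cell genes, and 1.63, 0.33 and 1.60 for 4 mast cell genes, with Mcpt4 and Fcer1a at 0. Of these lists, 5 of 6, 1 of 2, 1 of 4, 0 of 5, 1 of 4 and 0 of 4 genes were detected. B cells and CD8 T cells also use several of these receptors, and what part they had in the levels below was not tested.

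All 8 receptor genes were detected, over a range of about 2 orders of magnitude. Il2rg had 1322.52, 1374.71 and 1243.49 TPM in libraries 1, 2 and 3, a mean of 1314 ± 66.1 TPM. Its rank by mean TPM was 75 among the 55536 genes quantified, the set used for every rank below. It lay above 99.4% of the 12883 detected genes. The 3 libraries lay close together, and Il2rg was the highest of the 8 in each. The gene, ENSMUSG00000031304.18, lies at chrX:101264378-101268255 on the minus strand. It took 41.2%, 42.5% and 41.5% of the summed TPM of the 8 genes, and its TPM was 0.717 ± 0.0209 times that of the other 7 together. In a bulk sample, more cells with a transcript and more of it per cell cannot be told apart.

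Il2rb, the signalling beta chain shared by the IL-2 and IL-15 receptors, came second with 902.65, 933.19 and 923.38 TPM. Its mean was 919.7 ± 15.6 TPM, the smallest relative spread of the 8 in TPM, at rank 123. In TMM-scaled counts Il2rb was not the steadiest. It had 58815, 62280 and 66017 in libraries 1, 2 and 3, a ratio of highest to lowest of 1.12, against 1.04 for Il2rg. The gene, ENSMUSG00000068227.9, lies at chr15:78479256-78495271 on the minus strand. Il2ra had 255.88, 251.26 and 235.53 TPM, a mean of 248 ± 10.7 TPM at rank 641. The 3 chains of the IL-2 receptor were thus unequal at the RNA level in the same order in every library. TPM of Il2rg was 1.47, 1.47 and 1.35 times that of Il2rb in libraries 1, 2 and 3. TPM of Il2rb was 3.53, 3.71 and 3.92 times that of Il2ra. The chain that defines the high-affinity receptor was thus the least abundant RNA of the 3 in M21 TPM. In counts against the older annotation M4, taken up below, Il2rg was lower, at 698, 674 and 721 against 1748, 1663 and 1710 for Il2ra.

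Il15ra encodes the chain that binds IL-15 with high affinity and presents it to neighbouring cells. It had 30.05, 26.49 and 27.58 TPM, a mean of 28.0 ± 1.82 TPM at rank 5971. Its level lay well under that of Il2ra, whose TPM was 8.85 ± 0.553 times as high. Il2ra (ENSMUSG00000026770.5) and Il15ra (ENSMUSG00000023206.16) lie next to each other on chromosome 2, at chr2:11642807-11693193 and chr2:11705290-11734317, both on the plus strand. The gap is 12096 bases with 0 annotated genes in it, so these neighbours had unlike levels.

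Il21r (ENSMUSG00000030745.9) encodes the specific chain of the IL-21 receptor. It had 264.72, 295.73 and 249.92 TPM, a mean of 270.1 ± 23.4 TPM at rank 572. Il4ra (ENSMUSG00000030748.9) encodes the chain shared by the IL-4 and IL-13 receptors. It had 104.74, 134.75 and 108.23 TPM, a mean of 116 ± 16.4 TPM at rank 1680. Library 2 was the highest for both genes. They are also chromosomal neighbours, at chr7:125603429-125633570 for Il21r and chr7:125552120-125579474 for Il4ra, with a gap of 23954 bases and 0 annotated genes between them. TPM of Il21r was 2.34 ± 0.169 times that of Il4ra.

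Il7r encodes the IL-7 receptor alpha chain, which also forms the TSLP receptor with the product of Crlf2 and is typical of resting T cells. The gene, ENSMUSG00000003882.5, lies at chr15:9505788-9530176 on the minus strand and had 314.12, 202.89 and 197.27 TPM, a mean of 238 ± 65.9 TPM at rank 690. Library 1 stood above the other two, and the SD was 27.7% of the mean, the widest of the 8. Il9r, the IL-9 receptor chain (ENSMUSG00000020279.10) at chr11:32187541-32200279 on the minus strand, had 13.56, 11.97 and 12.82 TPM, a mean of 12.8 ± 0.796 TPM at rank 8260, and was the lowest of the 8 in each library. TPM of Il2rg was 103 ± 10.2 times that of Il9r.

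**Figure D1:**
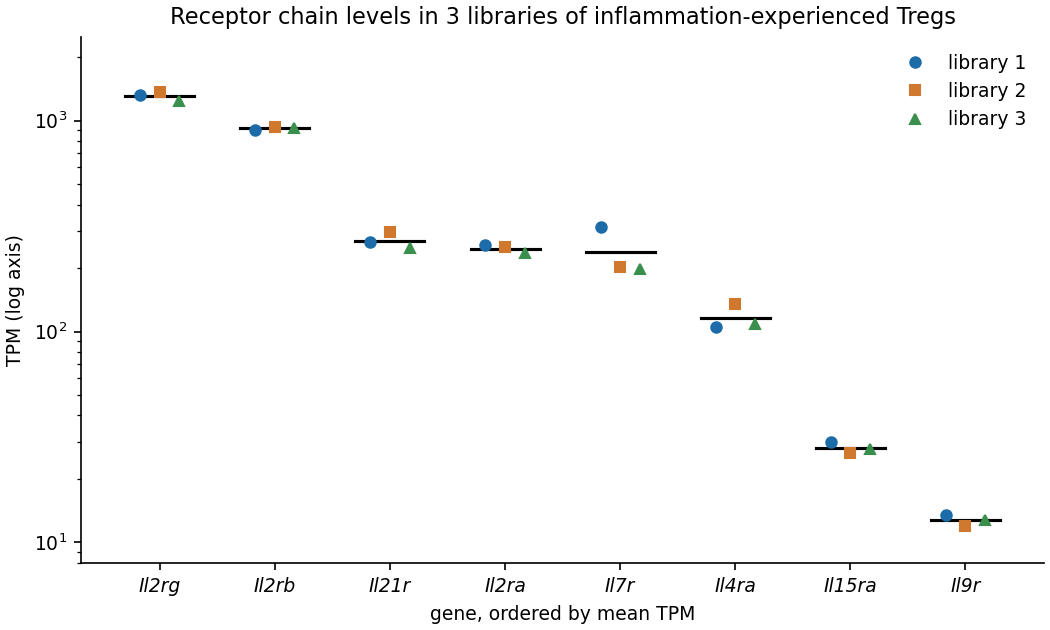
TPM on a log axis for the 8 receptor genes, ordered by mean TPM, with 1 point per library and a bar at the mean. Il2rg and Il2rb stand above the rest, Il21r, Il2ra and Il7r lie close together between 197 and 314 TPM, and Il15ra and Il9r lie lowest.

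Of the 7 neighbouring pairs in this order, 5 were apart. Apart means that log2(TPM + 1) differed with 1 sign in all 3 libraries and that neither the ranges over libraries nor the bounds the authors give for TPM overlapped. The differences were 0.51 ± 0.07 for Il2rg minus Il2rb, 1.77 ± 0.11 for Il2rb minus Il21r, 1.01 ± 0.51 for Il7r minus Il4ra, 2.00 ± 0.27 for Il4ra minus Il15ra and 1.07 ± 0.02 for Il15ra minus Il9r. With 3 libraries, an exact two-sided permutation test that flips signs cannot give a p below 0.25, and it gave 0.25 for each of these 5. Il21r and Il2ra were not apart, with a difference of 0.12 ± 0.10 and overlapping ranges. Il2ra and Il7r were not apart either. The difference, Il2ra minus Il7r, was -0.29 in library 1, and 0.31 and 0.25 in libraries 2 and 3 (mean 0.09 ± 0.33, exact p = 0.75). The order of the 3 middle genes therefore was not set by these data. It also depended on the quantification: in whole-number counts against the older annotation M4, taken per kilobase, Il2rg minus Il2rb was -1.31 and Il2rb minus Il21r was -0.25, while Il21r minus Il2ra was 1.42 and apart.

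The M4 counts of Il2rg were 698, 674 and 721, against M21 expected counts of 44883, 40914 and 46274. For Il2rb the M4 counts were 3438, 3431 and 3455, against M21 expected counts of 61303, 56764 and 69493. M4 counts spread much less between genes than M21 counts did. Il2rb, Il21r and Il4ra lay between 3136 and 3520 in M4, although their M21 expected counts lay between 8661 and 69493. Il2ra had M4 counts of 1748, 1663 and 1710, and Il15ra and Il9r had between 237 and 362. Il2rg, second of the 8 by M21 expected count, was thus sixth in M4. In the annotation, the protein-coding gene Gm20489 spans all of Il2rg on the same strand. Gm20489 had M21 counts of 0 in each library and M4 counts of 2, 0 and 1. What part this overlap, or the narrower spread of M4 counts, had in the Il2rg value was not tested.

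The transcript estimates, given by the authors as each transcript's percent of the TPM of its gene, put a protein-coding transcript first in 7 of the 8 genes. The exception was Il4ra. Of the 44 annotated transcripts of the 8 genes, 37 had counts in at least 1 library. These shares come from a model that divides reads which several transcripts have in common.

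Il4ra was led by Il4ra-205, of the biotype nonsense-mediated decay, whose reading frame holds 230 codons against 810 in Il4ra-201. Il4ra-205 took 76.6%, 76.9% and 75.5% of Il4ra TPM, at 80.25, 103.61 and 81.76 TPM. Il4ra-201, the transcript for the full receptor chain, took 16.1%, 15.0% and 15.8%, at 16.91, 20.26 and 17.13 TPM. The libraries agreed within 2 percentage points for both, and the bounds of the 2 transcripts did not overlap in any library. As background, an extra exon spliced in before the membrane-spanning part is known to give a soluble IL-4 receptor in the mouse. The 2 models also differ elsewhere, since the last exon of Il4ra-201 runs 1507 bases further, so the shares rest on that 3′ end as well as on the junction printed above. The antisense gene Gm44876 overlaps the extra exon, with counts of 20.71, 0.00 and 11.36, and whether reads were assigned by strand was not given in the sources used here.

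**Figure D2:**
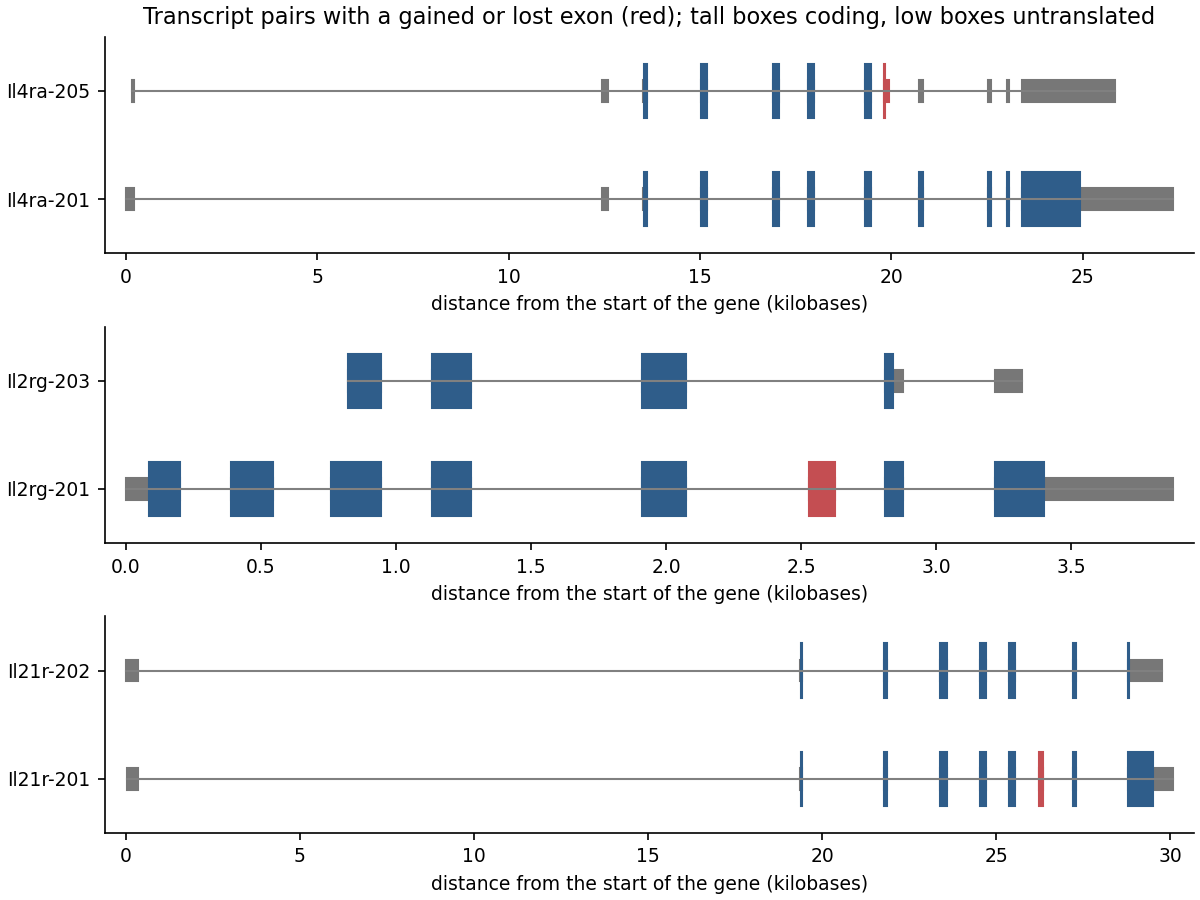
Exon maps of 3 transcript pairs, with the distance from the start of the gene in kilobases on the x axis, tall boxes for coding and low boxes for untranslated sequence. The exon in red is gained in Il4ra-205 and lost in Il2rg-203 and Il21r-202, and in each of these the coding sequence ends early.

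Il2rg was led by Il2rg-201, with 87.2%, 86.9% and 87.3% of its TPM, the steadiest leading share among the genes with several transcript classes. Il2rg-203, which lacks exon 6, took 5.39%, 6.01% and 4.57%, at 71.31, 82.59 and 56.79 TPM. Skipping of that exon is known as the source of a soluble common gamma chain. Because the gene is so abundant, this minor form had more TPM than Il15ra or Il9r as a whole in every library. Its annotated model starts inside exon 3 and is incomplete at the 5′ end. The retained-intron transcript Il2rg-204 took 7.54 ± 0.53%.

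Il21r-201, which encodes 529 codons, took 83.4%, 75.1% and 80.2% of Il21r TPM. Il21r-202, with exon 7 skipped and 268 codons, took 14.7%, 22.7% and 17.8%. The skipped form was highest in library 2, at 67.00 TPM against 38.78 and 44.54 TPM in libraries 1 and 3. Il21r-201 had 222.21 TPM in library 2 and 220.89 and 200.33 TPM in libraries 1 and 3, so Il21r-202 varied more between libraries than the full form. The last exon of Il21r-202 is 298 bases shorter.

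Il2ra-201, with 8 exons and 268 codons, took 74.7 ± 2.89% of Il2ra TPM. Il2ra-202, which has 2 exons and an open frame of 44 codons, took 20.9%, 18.1% and 20.9%, resting on counts of 1136, 851 and 1146. Full-length Il2ra stood at 187.75, 196.00 and 171.25 TPM on Il2ra-201 alone. The retained-intron transcript Il2ra-203 took 5.33 ± 1.28%. The unclassified gene Gm37881 lies within Il2ra on the same strand, with 209, 213 and 213 counts.

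Il2rb was divided between a pair of transcripts with the same coding region of 539 codons. Il2rb-201 took 55.1 ± 1.27% and Il2rb-202 took 44.9 ± 1.27%. They differ outside the coding region, and Il2rb-201 runs 2068 bases further at its 3′ end. Il2rb has no other annotated transcript, so the annotation alone put all of its TPM on transcripts for the full chain.

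Il7r-201, with 459 codons, took 71.6%, 71.1% and 72.9%. The non-coding Il7r-202 took 23.6 ± 0.66%. Both shares stayed within 2 percentage points over the libraries although the level of Il7r did not: Il7r-201 had 224.81, 144.33 and 143.77 TPM and Il7r-202 had 73.30, 49.34 and 45.51 TPM. Il7r-204, a coding transcript of 286 codons, took 2.06 ± 0.87%.

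The transcripts of the lowest genes were estimated less steadily. Il9r-205 took 35.8%, 63.3% and 49.3% of Il9r, and Il9r-202 took 47.2%, 17.9% and 22.2%, so the leading transcript of library 1 was not that of libraries 2 and 3. The full-length coding transcripts of Il9r together took 83.0%, 85.0% and 84.2%. Il15ra has 18 annotated transcripts, of which 13 had counts. Il15ra-201, with 263 codons, took 21.3%, 33.0% and 34.8%, and the retained-intron transcript Il15ra-208 took 22.4%, 22.5% and 26.2%. The coding transcript Il15ra-210 took 23.7%, 0.00% and 6.59%, with no steady share over libraries.

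Taken on full-length coding transcripts alone, those with a reading frame at least 95% as long as the longest of the gene, Il4ra kept the smallest share of its gene's TPM, 15.7 ± 0.57%. Such transcripts stood at 1145 ± 55.1 TPM for Il2rg, 919.7 ± 15.6 TPM for Il2rb and 214 ± 12.3 TPM for Il21r. They stood at 185 ± 12.6 TPM for Il2ra and 171 ± 46.6 TPM for Il7r. Il4ra had 18.1 ± 1.87 TPM of them, Il9r 10.7 ± 0.54 TPM and Il15ra 8.25 ± 1.65 TPM. On this scale Il4ra lay nearer to Il9r and Il15ra than to Il7r, its neighbour in the order of whole genes. The 95% limit was set after the shares had been seen.

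**Figure D3:**
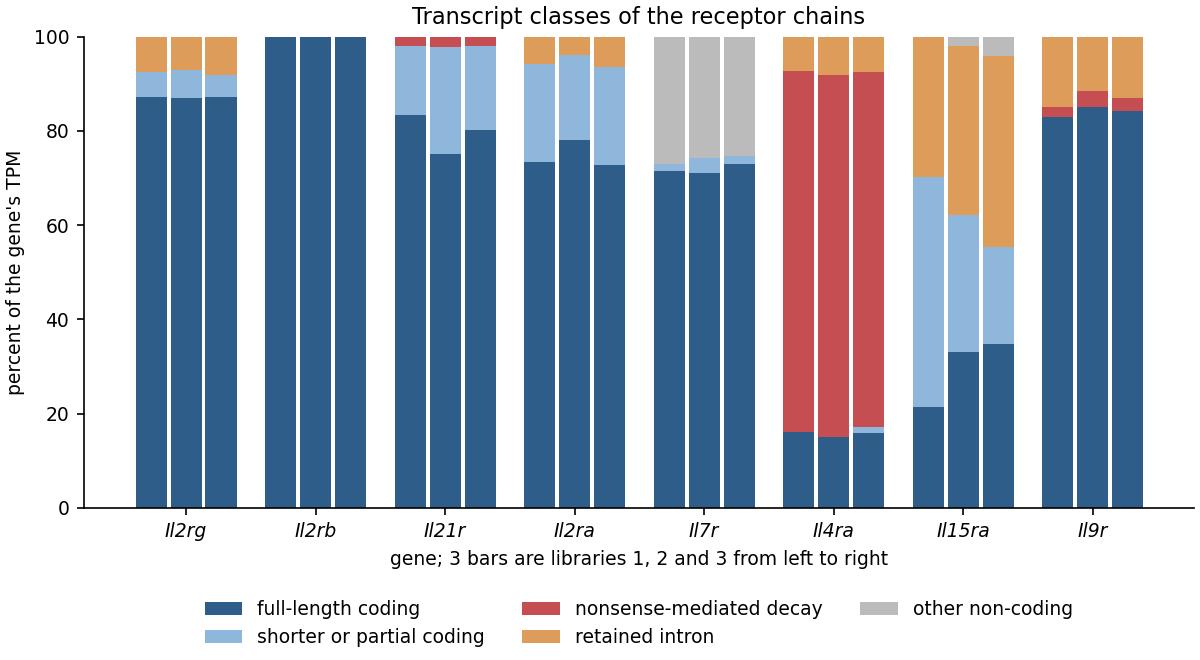
Percent of each gene's TPM by transcript class, with stacked bars for libraries 1, 2 and 3 from left to right in each gene. Full-length coding transcripts make up all of Il2rb, which has no other annotated class, and 87.1% of Il2rg on average. The nonsense-mediated decay class makes up 76.4% of Il4ra, and no class leads Il15ra in every library.

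All 8 genes differed between the 3 libraries by more than Poisson counting noise, as did 77.0% of the 18253 genes tested. The test was a chi-square test of TMM-scaled counts with Benjamini-Hochberg adjustment over all genes. It compares these libraries and no conditions, reads are not independent molecules, and with so many genes called the count says little about the receptors. The size of a difference is given by the ratio of the highest to the lowest library. Its median was 1.12 over the 8 genes, 1.16 over 8475 genes averaging at least 500 counts and 1.34 over all genes tested. It was 1.04 for Il2rg, 1.05 for Il2ra (adjusted p = 2.69e-05), 1.11 for Il21r, 1.12 for Il2rb, 1.13 for Il15ra (adjusted p = 0.0326) and 1.17 for Il9r (adjusted p = 0.00273). The calls of the smaller ratios depended on the libraries used. Without library 1, 7 of the 8 passed (57.8% of all genes), with Il9r lost. Without library 2, 5 passed (48.8% of all genes), with Il21r, Il2ra and Il15ra lost. Without library 3, the one with the gland genes, all 8 passed (60.4% of all genes). In M4 counts 6 passed (51.9% of all genes), with Il2rg and Il2ra lost.

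Il7r alone passed both the test and a ratio of at least 1.5, which 36.5% of all genes and 6.10% of genes averaging at least 500 counts did. Its expected counts were 20154, 11654 and 14054, with a chi-square of 1752 on 2 degrees of freedom. The TMM-scaled count was 1.51 times as high in the highest library, library 1, as in library 2. Of 788 genes within 2-fold of its mean count, 1.52% had as large a ratio. Without library 1 the ratio of the other two was 1.05 (adjusted p = 6.19e-04). In M4 counts, at 2759, 2333 and 2482, library 1 was again the highest, with a ratio of 1.13 (adjusted p = 1.74e-04). In M4 counts Il7r thus lay below the ratio of 1.5. The ratio between libraries was smaller in M4 than in M21 counts for Il7r, Il4ra, Il2rb and Il21r. It was larger in M4 for Il2rg, Il2ra, Il15ra and Il9r. Why the M4 and M21 ratios of Il7r differ was not tested. Library 1 was also the highest for 3 of the 6 Treg markers. Ctla4 had 322.70, 230.06 and 288.96 TPM (ratio of scaled counts 1.41), Ikzf2 had 435.61, 345.27 and 350.40 TPM (ratio 1.21) and Tnfrsf18 had 945.19, 785.83 and 810.44 TPM (ratio 1.17). The other 3, Foxp3, Cd4 and Cd3e, were highest in library 3 in scaled counts, with ratios of 1.05, 1.09 and 1.05. What part a difference in Treg content between libraries had in the Il7r value was not tested.

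Il4ra was next, with expected counts of 8661, 9716 and 9647 and a ratio of 1.28 between libraries 2 and 1 (adjusted p = 2.17e-62). Of 1534 genes within 2-fold of its mean count, 6.45% had as large a ratio. Library 2 was also the one with the highest sums of Cd8a and Cd8b1 and of B cell genes, and library 1 the one with the highest dendritic cell sum. That sum rested mostly on 1 gene, Zbtb46, at 7.09, 3.75 and 1.79 TPM. Xcr1 was also highest in library 1, at 0.56, 0.05 and 0.20 TPM. Flt3 was lowest in library 1, at 0.12, 0.24 and 0.18 TPM, and Siglech was highest in library 3, at 0.15, 0.00 and 0.38 TPM. Whether these had a part in the Il4ra and Il7r values was not tested. For Il9r the direction depended on the unit. Its TPM was highest in library 1, while its TMM-scaled count was lowest there, at 727, against 848 and 852 in libraries 2 and 3. The mean transcript length the authors used for Il9r was 2583, 3375 and 2954 bases in those libraries.

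**Figure D4:**
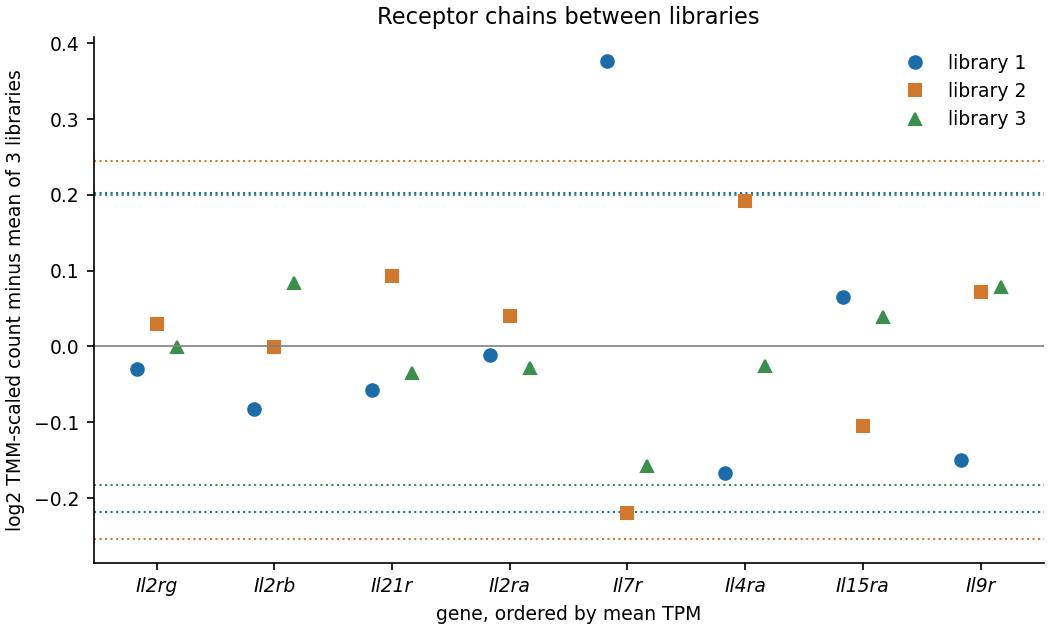
Log2 TMM-scaled count of each receptor gene in each library minus the gene's mean over the 3 libraries. Dotted lines in the colour of a library mark the 5th and 95th percentiles of 8475 genes averaging at least 500 counts, and the one point outside its own pair of lines is Il7r in library 1, at 0.38 against 0.20.

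The genes whose TMM-scaled counts followed Il7r most closely over the 3 libraries, among 9214 genes called different and averaging at least 100 counts, were 1700097N02Rik, Zfp82 and Prc1. Likeness was the Euclidean distance between centred log2 counts, which was 0.00157, 0.0157 and 0.0222. 1700097N02Rik had 14.48, 9.52 and 9.22 TPM, Zfp82 had 11.47, 7.65 and 7.56 TPM, and Prc1, a regulator of the mitotic spindle, had 11.69, 6.67 and 6.43 TPM. With 3 libraries, near matches are easily found among so many genes.

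The cytokines that bind these receptors were low in the same RNA. Of 8 ligand genes, Il4 alone was detected, at 1.31, 8.11 and 3.81 TPM on counts of 16, 85 and 48. Il2 had 0.80, 2.09 and 1.01 TPM, Il15 had 0.60, 1.03 and 1.08 TPM, and Il7 had 0.86, 0.30 and 0.45 TPM. Il21 had 27, 0 and 20 counts. Il9, Il13 and Tslp had 0 counts in each library (a count of 0 allows up to 3, for counting error only). All 5 ligands tested differed between libraries, as did 77.0% of all genes, each on fewer than 100 counts a library, and their highest library was not the same one.

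Among other chains that pair with the 8, Crlf2, the partner of Il7r in the TSLP receptor, stood at 81.66, 69.83 and 79.61 TPM. Il13ra1, the partner of Il4ra in the IL-13 receptor, stood at 4.07, 3.21 and 2.16 TPM. Il13ra2, a decoy receptor for IL-13, had 0 counts in each library.

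All 8 kinases and STATs of the pathway were detected. Jak1, which binds the cytokine-specific chains, stood at 449 ± 32.4 TPM and Jak3, which binds the common gamma chain, at 159 ± 12.4 TPM. Jak3 thus lay well under the 1314 ± 66.1 TPM of the chain it binds. Tyk2 was the lowest of the list at 63.1 ± 5.32 TPM. The STAT5 genes, which transmit IL-2 signals, stood at 139 ± 11.3 TPM for Stat5b and 75.7 ± 6.40 TPM for Stat5a. Stat6, which transmits IL-4 signals, stood at 192 ± 17.6 TPM.

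Of 7 adaptor and PI3-kinase genes, 5 were detected, from Pik3cd at 198 ± 14.0 TPM to Irs2, an adaptor of the IL-4 receptor, at 10.5 ± 0.11 TPM. Irs1 and Gab2 had 0.05 and 0.12 TPM on average. All 12 response and survival genes were detected. Ccnd2, a cyclin, was the highest at 898 ± 42.5 TPM, the survival gene Mcl1 had 442 ± 26.1 TPM, and Cish, a STAT5 target that restrains IL-2 signalling, had 259 ± 19.1 TPM. Osm, also a known STAT5 target, was the lowest at 19.96, 31.91 and 22.75 TPM. All 7 negative regulators were detected, from the phosphatase gene Ptpn6 at 277 ± 28.8 TPM to Ptpn11, whose product also promotes signalling, at 23.8 ± 1.88 TPM.

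All 10 transcription factor genes known to act on Il2ra or Il7r were detected. Ets1 was the highest at 765 ± 39.1 TPM and Rel, which acts on Il2ra, the lowest at 23.0 ± 1.82 TPM. Foxo1, which activates Il7r, had 72.91, 87.26 and 80.91 TPM, with its lowest value in the library where Il7r was highest. Gfi1, which represses Il7r, had 35.97, 42.86 and 26.71 TPM, so it lay between the other libraries there. With 3 libraries, no relation between these genes was tested.

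Over the 55 pathway genes outside the 8, 45 were detected and 51 could be tested. The libraries differed for 47 of the 51, set against the 77.0% of all genes given above. Of the 51 tested, 9 passed both the test and a ratio of at least 1.5. The share that passed both was 36.5% of all genes tested and 6.10% of genes averaging at least 500 counts. Of these 9, 5 were ligands on few counts. Of the 47, 9 were highest in library 1, 20 in library 2 and 18 in library 3. The same split was not made over all genes called, so it cannot be read as a trait of the pathway. The median ratio over the 51 tested was 1.18, against 1.16 over genes averaging at least 500 counts and 1.34 over all genes tested. Foxp3 (adjusted p = 0.147), Runx1 (adjusted p = 0.132), Grb2 (adjusted p = 0.131) and Shc1 (adjusted p = 0.827) were the tested genes that did not pass.

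**Figure D5:**
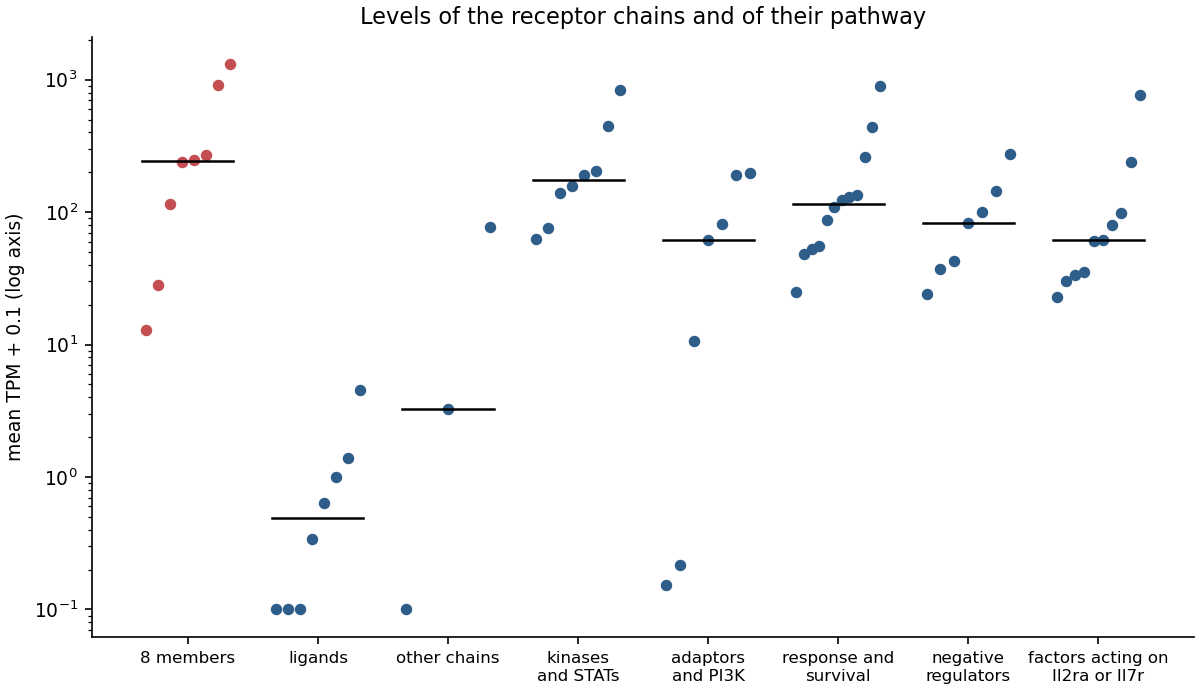
Mean TPM plus 0.1 over 3 libraries on a log axis for the 8 receptor genes and for 7 lists of other pathway genes, with 1 point per gene and a bar at each list's median. The ligands lie lowest, with 3 of 8 at 0 counts, and the kinases and STATs all lie at 63.1 TPM or above.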

How the data were processed

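Polyadenylated RNA of 1 biosample was measured in 3 libraries. The deposited M21 tables hold expected counts, which need not be whole, posterior mean counts, TPM with lower and upper bounds (an interval of unstated level around the posterior mean, which can lie below the TPM) and FPKM, as the authors made them, per the file headers. Deposited transcript tables also give each transcript's percent of the TPM of its gene. Gene counts against M4, deposited as whole numbers, were a second source. Per the labels, RNA was sheared with a Covaris instrument. No aligner, counting program or strand handling was given in the sources used here.

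Expected counts were rounded. Rows that name no gene (transfer RNAs, spike-ins) took 0.170%, 0.170% and 0.218% of counts and were left out. Genes averaging 10 counts or more were tested with a chi-square test of TMM-scaled counts against Poisson noise, adjusted by Benjamini-Hochberg at 0.05, using edgeR 4.0.16 for TMM in R 4.3.3 and scipy 1.17.1 for the test. With 1 group, no quasi-likelihood contrast could be made. A called gene with no count in a library was counted as past the ratio of 1.5. Intervals over 3 technical libraries cover no biological spread. The test was checked on simulated counts with Poisson noise alone, which is the noise the test assumes. That check cannot show how the test behaves with the larger noise of these libraries. Its criterion was changed after a first result had been seen. Alternatives were DESeq2 1.42.0 size factors, total counts, posterior mean counts, M4 counts, no filter, other units and pseudocounts, and leaving out each library. Coding sequences and exons come from the GENCODE M21 annotation and transcripts on mm10.

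All 8 receptor genes were named in full, and from each pathway list at least the highest and lowest by mean TPM, with the 3 genes most like any receptor gene of ratio 1.5 or more. The values of 1 list gene are not reported here. The 8 genes and the lists were chosen with earlier results of these data known. The background at a mean count of 500, the classes of transcripts, the ratios between genes and the shares of genes within 2-fold of a count were chosen after the values were seen.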

Additional observations from a re-analysis of the deposited data

How the results depend on the processing

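The 8 receptor genes called different between libraries stayed 8 under DESeq2 size factors, total counts, posterior mean counts and no filter, and were 6 in M4 counts, where Il2rg (adjusted p = 0.707) and Il2ra (adjusted p = 0.165) did not pass. Leaving out each library gave 5 to 8: without library 2, Il21r, Il2ra and Il15ra were lost, and without library 1, Il9r. Asking also for a ratio of at least 1.5 left 1. The 47 of 51 pathway genes called became 27 of 47 tested in M4 counts (51.9% of all genes). With a library left out they were 38 of 49, 37 of 51 and 40 of 51 without libraries 1, 2 and 3 (57.8%, 48.8% and 60.4% of all genes). The 5 pairs apart stayed 5 in FPKM, posterior mean TPM and with a pseudocount of 0.1, and were 5 to 6 with a library left out. In M4 counts per kilobase 3 pairs were apart in the order given: 2 of those 5 (Il4ra and Il15ra, Il15ra and Il9r) and Il21r and Il2ra, which gained the call at 1.42, while 3 were apart the other way. In counts without length correction 3 of those 5 were apart and 2 pairs were apart the other way, with Il15ra minus Il9r no longer apart at 0.30. The bounds were not used in these 2 settings. In M4 counts per kilobase the difference turned to -1.31 for Il2rg minus Il2rb, -0.25 for Il2rb minus Il21r, -0.80 for Il2ra minus Il7r and -0.12 for Il7r minus Il4ra. In counts without length correction it turned to -0.50 for Il2rg minus Il2rb and -0.43 for Il21r minus Il2ra. Il2ra minus Il7r was -0.020 without library 2 and 0.28, apart, without library 1. The cause was not tested. The 7 genes led by a protein-coding transcript stayed 7 throughout, on shares averaged over libraries. Il15ra was not steady by library: in library 2 the posterior mean share was 20.0% for the retained-intron Il15ra-208 and 18.9% for Il15ra-201. No paired analysis was possible because all libraries form 1 group. Il9r and Il15ra rest on the fewest counts, which limits their transcript shares.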
